A study of Mus musculus with 4 samples.

Results

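The transcripts described here are the 95 RefSeq mRNA identifiers whose signal in day 10.5 cardiomyocytes stood furthest above that of every earlier population in a mouse pluripotent stem cell (PSC) differentiation series. They were taken from 20846 curated mRNA identifiers on the array. For each identifier the score was the log2 signal in the cardiomyocytes minus the highest log2 signal among the 3 earlier populations, and at least 0.5 of its spots had to be well above background in the cardiomyocytes, which left 16708 identifiers. The 100 highest scores were taken, and 5 of 10 identifiers named for leaving out were among them (Cox8b, Tnni3, Myom2, Cox6a2 and Myl2). Of the 95 members, 94 matched a symbol and covered 93 genes, because Ush1c was present with 2 identifiers. The remaining member, NM_177652, is given by its identifier only. The members were thus chosen by the M+CM score itself, so their scores are a description, and no test was made on them.

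Gene expression was measured with 1-colour arrays in 4 sorted populations, 1 array each. Flk1+ MPCs, mesodermal precursors used as cardiovascular progenitors, were taken at day 4.5 of culture without leukemia inhibitory factor. Spontaneously formed PCBs (sfPCBs, PDGFRα+ cardioblasts that arose without CsAYTE) and PCBs induced with CsAYTE were taken at day 5.5, and αMHC+ cardiomyocytes (M+CMs) at day 10.5. CsAYTE stands for Cyclosporin A, Y27632 (which blocks ROCK), Trolox (an antioxidant) and EW7197 (which blocks ALK5), and the vehicle was DMSO. The label of the M+CM sample leaves its exposure to CsAYTE unstated, whereas the study's text describes M+CMs as descending from induced PCBs. The study's αMHC-GFP reporter line is the mouse embryonic stem cell line EMG7, in which the αMHC (Myh6) promoter drives GFP, so that M+CMs are cells in which this cardiac promoter was active. After day 4.5 the sorted Flk1+ MPCs were grown on OP9 stromal feeder cells or on gelatin, and the labels do not say which for these samples. The study's text reports that CsAYTE did not give PCBs in cultures without feeder cells, and its mouse PCB yields are for OP9 co-culture. sfPCBs and PCBs were defined by PDGFRα with loss of Flk1. The labels call the cell type of all 4 samples embryonic stem cells and give no separate cultures, so all 4 stand for 1 sample per population.

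Cardiomyocytes contract when calcium released from the sarcoplasmic reticulum frees actin filaments for myosin. During maturation they build Z-discs that anchor the filaments, a surface membrane with caveolae and costameres, pumps and channels that shape the calcium transient and the action potential, and a metabolism that rests on oxygen, fatty acids and stored glycogen. Several of these parts are made from muscle isoforms that replace an isoform common to all cells.

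Between 73.3% and 76.2% of the spots of an array were well above background, no spot was saturated, and all 4 arrays lay on 1 slide. Each population had its own single array, so array and population cannot be told apart. With 1 array per population no value has a spread between samples, and the number of arrays limits the precision. An error given as ± is the scanner software's own error of a log2 difference, which covers the spot and its background only. The cardiomyocyte label was checked with 5 defining markers outside the members. Myh6 had scaled signals of 40.6 (Flk1+ MPCs), 43.5 (sfPCBs), 6156.8 (PCBs) and 112738.1 (M+CMs). Its promoter defines M+CMs, so its value is no independent check of the label. Tnnt2 had 150.2, 3175.7, 145594.9 and 403180.4 in the same order. Ryr2, Nkx2-5 and Mybpc3 were likewise above background on all spots in M+CMs and highest there. A further marker, Actn2, is itself a member, so its place follows from the choice. Of 23 fibroblast, stromal and feeder genes detected in PCBs or M+CMs, 13 were 2-fold or more below PCBs in M+CMs and 5 higher. The summed signal of the list was 58834 (Flk1+ MPCs), 401486 (sfPCBs), 196027 (PCBs) and 32119 (M+CMs). Col1a2 alone had 779.9, 175055.7, 109297.8 and 18307.3 in the same order. Pdgfra is on this list and its protein defines sfPCBs and PCBs, so its lower value in M+CMs is no independent observation. All 18 cell cycle genes listed were 2-fold or more below PCBs in M+CMs, with a median log2 difference of -3.77. The part of these genes in the scores was not tested.

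The scores of the 95 members ran from 4.54 to 8.64 with a median of 5.53, which is 23.3-fold to 399.5-fold with a median of 46.1-fold over the highest earlier population. For comparison, the median score of all 16708 identifiers was -0.27, M+CMs had the highest of the 4 signals in 39.6% of them, and in 1.68% the signal was at least 10-fold above the highest earlier population. The median error of a score was 0.22, with a range from 0.07 to 1.45. The median scaled signal of the members was 23.1 (Flk1+ MPCs), 23.7 (sfPCBs), 38.7 (PCBs) and 2995.4 (M+CMs). By the way they were chosen, the M+CM signal of all 95 was 2-fold or more above that of PCBs, that of sfPCBs and that of Flk1+ MPCs, which held for 20.0%, 22.4% and 22.7% of all identifiers detected in either array of the comparison. At the end of the ranking, Lonrf3 (4.55), Map7 (4.55) and Pde4dip (4.54) lay just inside and Kcnj5 (4.53), Ces1e (4.51) and Ptp4a3 (4.49) just outside.

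**Figure D1:**
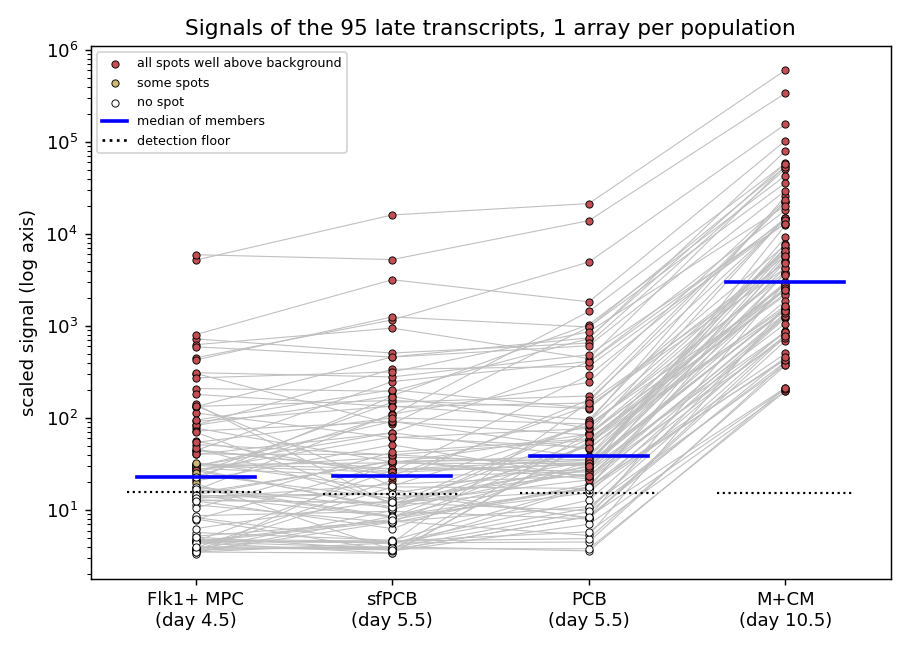
Scaled signal (log axis) of the 95 late transcripts in the 4 arrays, with 1 grey line per transcript; red points had all spots well above background, yellow points some and white points none, the blue bar is the median of the members and the dotted bar the detection floor of the array (15.1 to 15.9). The median lay at 23.1, 23.7 and 38.7 in the earlier arrays and at 2995.4 in M+CMs.

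Many members were near or below the detection limit before day 10.5. The score subtracts the highest early signal, so the rule itself favours identifiers that are dim early, and the counts are a description. In Flk1+ MPCs 44 had no spot above background, in sfPCBs 38 and in PCBs 19, while 47, 52 and 73 had all spots above background in the same order. Over all spots of these arrays, 74.5%, 73.3% and 73.9% were well above background. Spots are another unit than members, and the counts per member were not made over all identifiers. No spot was above background in any earlier population for 15 members, and for these the fold is a lower bound. It was set against the lowest signal well above background on each array, or the member's own signal where that was higher, as for Dok7. The bounds ran from at least 12.3-fold for Gria1 and Mug2 to at least 187.9-fold for Doc2b. Next were Myoz2 (at least 102.8-fold), Dok7 (at least 72.5-fold), Kcnd2 (at least 55.6-fold) and Fam81a (at least 50.1-fold). On the other side, 40 members had all spots above background in all 3 earlier arrays and were therefore measured on both sides of the difference.

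**Figure D2:**
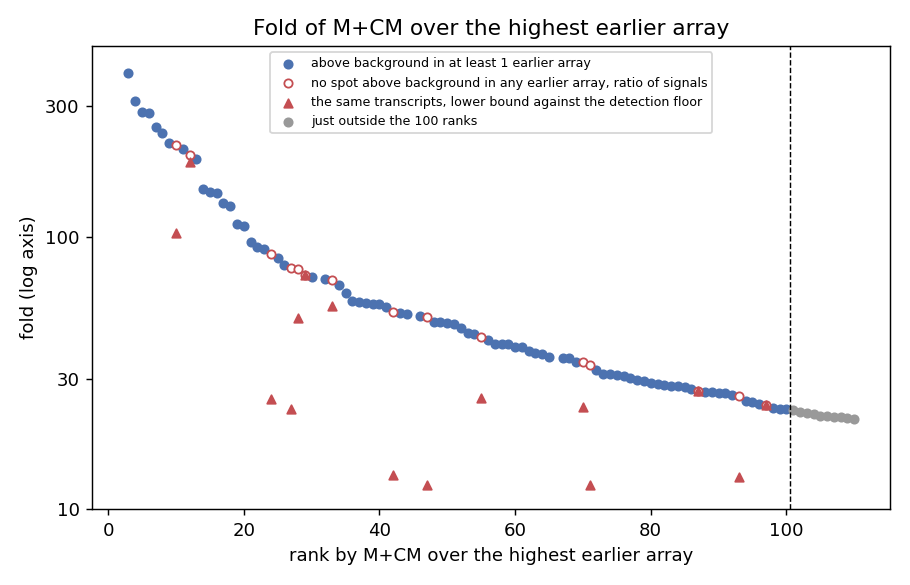
Fold of M+CM over the highest earlier array (log axis) against rank; blue points were above background in at least 1 earlier array, white circles are the 15 members with no spot above background in any, red triangles are their lower bounds, and grey points right of the dashed line rank just outside. The bounds span 12.3-fold to 187.9-fold.

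RefSeq promoter windows (250 bases before to 50 after each start, GRCm38.p6) were found for 67 member genes, with 92 windows in all. A MEF2 site, the A/T-rich element bound by myocyte enhancer factor 2, was present in 4 of these windows (4.3%), against 0.6% of 32851 windows of all genes. These 4 windows belonged to Myoz2, Ppp1r3a, Lrrc14b and Lsmem1, and they are shown because this element had the largest ratio between members and all windows among the 9 searched, a choice made after the shares were seen. Capitals mark the MEF2 site, and each line ends at the last base before the start.
Myoz2 promoter, chr3:123034988-123035237, - strand: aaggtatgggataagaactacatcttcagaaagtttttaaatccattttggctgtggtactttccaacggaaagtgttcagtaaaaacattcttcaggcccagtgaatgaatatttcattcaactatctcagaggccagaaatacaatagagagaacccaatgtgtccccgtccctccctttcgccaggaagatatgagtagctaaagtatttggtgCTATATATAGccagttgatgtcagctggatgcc
Ppp1r3a promoter, chr6:14755275-14755524, - strand: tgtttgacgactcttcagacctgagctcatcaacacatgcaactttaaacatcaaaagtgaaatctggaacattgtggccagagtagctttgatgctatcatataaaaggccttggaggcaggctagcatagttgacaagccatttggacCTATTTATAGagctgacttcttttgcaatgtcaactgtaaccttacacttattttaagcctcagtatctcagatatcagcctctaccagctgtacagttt
Lrrc14b promoter, chr13:74364001-74364250, - strand: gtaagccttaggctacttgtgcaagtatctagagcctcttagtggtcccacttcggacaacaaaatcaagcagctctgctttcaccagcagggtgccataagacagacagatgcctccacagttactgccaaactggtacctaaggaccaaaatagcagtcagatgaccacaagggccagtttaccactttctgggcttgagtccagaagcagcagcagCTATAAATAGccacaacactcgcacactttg
Lsmem1 promoter, chr12:40199316-40199565, - strand: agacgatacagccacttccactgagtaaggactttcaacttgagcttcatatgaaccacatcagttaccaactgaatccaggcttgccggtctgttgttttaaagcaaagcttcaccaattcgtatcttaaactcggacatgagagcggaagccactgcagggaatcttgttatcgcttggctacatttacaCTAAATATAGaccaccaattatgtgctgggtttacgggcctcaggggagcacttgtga

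In the Myoz2 and Lrrc14b promoters the element lay 33 to 24 and 31 to 22 bases before the start, the usual place of a TATA box, and in Lrrc14b the same letters hold TATAAA. It lay 100 to 91 bases before the start in Ppp1r3a and 58 to 49 in Lsmem1. These are matches of letters, not measured binding. In their signals the genes had little in common besides the M+CM value. Myoz2 was not above background in any earlier array (5.2, 7.6 and 5.3 in Flk1+ MPCs, sfPCBs and PCBs, 1638.9 in M+CMs), and neither was Ppp1r3a (4.0, 3.9, 17.8 and 431.0). Lsmem1 was above background in all 4 (40.3, 69.2, 37.7 and 4297.1), and Lrrc14b from day 5.5 on (10.5, 42.7, 59.7 and 2168.7).

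A CArG box, the element bound by serum response factor, was present in 3.3% of the member windows and 1.6% of all windows, in Myl9, Lama2 and Trnp1. TATAAA on the sense strand between 45 and 16 bases before the start was found in 5.4% of member windows and 2.1% of all. The Myl9, Lama2 and Tnnt1 windows are shown as examples of muscle genes with these elements, with the CArG box of Myl9 and Lama2 and the TATA box of Tnnt1 in capitals.
Myl9 promoter, chr2:156775214-156775463, + strand: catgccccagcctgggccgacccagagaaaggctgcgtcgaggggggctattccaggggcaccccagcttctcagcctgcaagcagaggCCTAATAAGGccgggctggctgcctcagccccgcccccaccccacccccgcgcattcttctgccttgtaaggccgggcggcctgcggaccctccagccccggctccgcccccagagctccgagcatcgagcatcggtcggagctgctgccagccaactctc
Lama2 promoter, chr10:27616943-27617192, - strand: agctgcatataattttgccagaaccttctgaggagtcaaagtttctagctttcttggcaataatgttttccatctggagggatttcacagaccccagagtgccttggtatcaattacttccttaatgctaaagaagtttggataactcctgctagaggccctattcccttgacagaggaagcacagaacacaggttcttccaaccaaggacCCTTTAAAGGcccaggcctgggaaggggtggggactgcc
Tnnt1 promoter, chr7:4515976-4516225, - strand: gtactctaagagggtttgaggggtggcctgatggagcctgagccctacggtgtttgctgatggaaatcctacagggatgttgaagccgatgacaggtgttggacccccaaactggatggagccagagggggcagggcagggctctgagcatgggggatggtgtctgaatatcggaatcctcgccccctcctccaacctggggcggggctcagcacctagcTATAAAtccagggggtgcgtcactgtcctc

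The other elements were searched on both strands over the whole window of 300 bases. CAGCTG, the muscle type of E-box, was in 20.7% of member windows and 16.3% of all, CATTCC (M-CAT) in 21.7% and 14.7%, and TATAAA at any place in 19.6% and 13.6%. The shares were close to or below those of all windows for the letters AGATAA of GATA factors (10.9% and 11.2%), GGTGTGA of T-box factors (2.2% and 4.0%) and AAGGTCA of estrogen-related receptors (2.2% and 4.7%). The letters TNAAGTG of NKX2-5 were in 10 of 92 member windows (10.9%) and 3790 of 32851. Alternative starts of 1 gene share sequence, and members were not matched for base composition, whose median GC content was 57.2% in member windows and 52.7% in all.

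To describe the members by role, 69 were placed in 8 groups by what their genes are known for, after their values were seen, and 26 were kept apart. The contractile group had 10 members with scores from 4.54 to 7.98. Myoz2 (NM_021503, calsarcin-1), which ties calcineurin to the Z-disc, had a score of 7.76 ± 0.65, and M+CM signal at least 102.8-fold above every earlier array. Actn2 (NM_033268), the α-actinin that cross-links actin at the Z-disc, had signals of 305.0 (Flk1+ MPCs), 86.2 (sfPCBs), 976.1 (PCBs) and 53980.9 (M+CMs), a score of 5.79 ± 0.20. Csrp3 (NM_013808), the muscle LIM protein of the Z-disc, had signals of 23.1, 108.2, 1441.6 and 58448.7 in the same order. Both Z-disc genes thus stood higher in PCBs than in sfPCBs, and higher again in M+CMs.

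Mybphl, a relative of the myosin-binding proteins of the thick filament, had signals of 45.5, 26.1, 291.8 and 14871.5, again higher in PCBs than in sfPCBs. Tnnt1, the slow skeletal troponin T, followed another order, with 627.7 (Flk1+ MPCs), 950.5 (sfPCBs), 444.0 (PCBs) and 54860.0 (M+CMs). It was lower in PCBs than in either of the other early populations. Of the 21 skeletal muscle genes listed, 14 were detected in PCBs or M+CMs. Without Tnnt1, which was higher by the way it was chosen, 5 of 13 were 2-fold or more above PCBs in M+CMs and 4 below (median log2 difference -0.54). The summed signal of the list, Tnnt1 included, was 2548, 3736, 6753 and 90215. Myh8 was at 27520.5 in M+CMs, whereas Myog, Myh1, Myh2 and Myh4 had no spot above background there. Tnnt1 lies next to the left-out Tnni3 on chromosome 7.

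Of the remaining contractile members, Tnni3k, a cardiac kinase that binds troponin I, was nearly level before day 10.5 (28.0, 37.6, 32.9) and reached 1478.8 in M+CMs. Myl9, a regulatory light chain best known from smooth muscle, was already well above background at 5211.6, 16136.0 and 21459.9, and was 604757.5 in M+CMs, a score of 4.82 ± 0.20. It had one of the smallest scores of the group, as did Pde4dip, the gene of myomegalin (273.5, 317.4, 868.9 and 20245.1). Capzb, the β-subunit of the actin capping protein, had 4.6, 27.1, 31.3 and 7870.4 for the member identifier NM_001037761, a score of 7.98 ± 0.28. The other Capzb identifier, NM_009798, was bright in every array (9076.0, 8559.2, 5744.1 and 11342.2) with a score of 0.32. CapZβ is known to exist in a Z-disc form and a form of the cell cortex, but which form each probe reads was not determined.

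Membrane and adhesion genes numbered 12, with scores from 4.74 to 8.15. Cav3 (NM_007617), the muscle caveolin, was not above background in Flk1+ MPCs (3.7) and sfPCBs (9.9), reached 90.5 in PCBs and 25760.7 in M+CMs, and had a score of 8.15 ± 0.21. Trim72 (MG53), which takes part in membrane repair, followed the same course at 17.9, 10.6, 49.1 and 7115.3. For both, PCBs were the only earlier population with spots above background. Sptb, the β-spectrin of erythrocytes and muscle, had 14.3, 15.1, 33.4 and 6441.7, and its partner Ank1 (ankyrin 1) had 6.3, 12.8, 29.5 and 1543.8. Both were detected before day 10.5 only in PCBs, near the detection floor.

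Lama2, the laminin α2 chain of the muscle basement membrane, was present at 148.6 in sfPCBs and 173.8 in PCBs, with only some spots above background in Flk1+ MPCs, and was 22500.3 in M+CMs. Its error was 0.15 on a score of 7.02. Itgb1bp2 (melusin), which binds the β1 integrin tail in striated muscle, had 113.6, 61.2, 77.0 and 6421.8. Ctnna3, the αT-catenin of the intercalated disc, and Dok7, an adaptor known from the neuromuscular junction, were above background in M+CMs only (408.0 and 1226.8), by at least 25.6-fold and at least 72.5-fold. Cdh13 (T-cadherin) was above background throughout at 428.2, 1257.6, 977.1 and 35938.9, and so were Ntm (2818.1 in M+CMs) and Lrrn2 (5814.6 in M+CMs). Adamts19, a secreted protease, was highest of the early arrays in Flk1+ MPCs (70.1, 11.8, 30.1 and 1878.6).

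Genes of calcium handling and the sarcoplasmic reticulum made up 9 members, all of them above background on all spots in PCBs. Pln (NM_023129), phospholamban, the inhibitor of the reticulum calcium pump, had no spot above background in Flk1+ MPCs (4.6) or sfPCBs (4.4), 149.1 in PCBs and 22371.6 in M+CMs, a score of 7.23 ± 0.21. Sln, sarcolipin, a second small inhibitor of the same pump, showed the same order at lower folds (3.5, 8.5, 28.4 and 861.1). Tecrl (NM_153801), a reticulum protein linked to catecholaminergic arrhythmia, had 3.9, 3.7, 68.3 and 15002.2. The 3 genes shared the step from undetected at day 4.5 to detected in PCBs but not in sfPCBs.

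Hhatl was equal in Flk1+ MPCs and PCBs (27.9 in both), not above background in sfPCBs (10.3) and 3719.1 in M+CMs. Dhrs7c, a reductase of the sarcoplasmic reticulum, was also not above background in sfPCBs, at 26.8, 10.8, 68.3 and 2448.5. Cacna1h, a T-type calcium channel, differed from these because it was clearly present before day 10.5 (725.6, 509.2, 653.9) and reached 50820.7, a score of 6.13 ± 0.20. Slc24a4, a sodium, calcium and potassium exchanger, was highest of the early arrays in sfPCBs (20.7, 51.2, 22.5 and 2667.3). The calcium sensors Vsnl1 (5.7, 4.7, 18.2 and 3807.5) and Tesc (83.3, 174.6, 1037.8 and 43152.7) were highest before day 10.5 in PCBs. On the calcium handling list, 3 of 34 detected genes were members, and of the other 31, 27 were 2-fold or more above PCBs in M+CMs and 0 lower, with a median log2 difference of 2.19. Over all genes 19.8% were higher and 17.2% lower, with a median of 0.10.

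Ion channel genes were among the members hardest to detect early. Of 8, 4 had no spot above background in any earlier array, and 3 had all spots above background in PCBs. Kcnd2 (Kv4.2), a channel of the transient outward potassium current, had 3.5, 4.4, 12.8 and 885.9, at least 55.6-fold higher in M+CMs. Kcne2, a small accessory subunit of potassium channels, reached 377.6 (at least 23.7-fold), Scn7a, a sodium channel family member, 373.4 (at least 23.4-fold), and Gria1, a glutamate receptor subunit, 195.9 (at least 12.3-fold). Kcng2, Abcc9 and Panx2 had their highest early signal in PCBs. Kcng2, a modifier subunit of potassium channels, was above background in PCBs (58.5) and M+CMs (2816.3) only. Abcc9, the SUR2 subunit of the KATP channel of heart and muscle, had 13.4, 19.1, 23.7 and 737.6, and Panx2 had 4.6, 7.9, 17.4 and 503.4. In the list of channels and gap junctions, 3 of 34 detected genes were members, and of the other 31, 21 were 2-fold or more above PCBs in M+CMs and 1 lower (median 2.07). The lower gene was Gja1, connexin 43, the main gap junction protein of the ventricle, with 3414.4, 2162.5, 1199.1 and 59.0, a log2 difference of -4.35. It was above background in all arrays and is named after its values were seen. The study's own measurement of connexin 43 mRNA had the opposite order, lower in PCBs than in M+CMs. The samples were not alike. In the protocol of that figure, PCBs were sorted later than day 5.5, and both populations were replated on gelatin and analysed a day afterwards. The reason for this difference was not tested.

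Receptors and signalling genes were 8 members. Chrm2, the M2 muscarinic receptor through which the vagus slows the heart, had 11.4, 7.3, 19.0 and 1262.6, and Rgs6, which ends G protein signalling downstream of that receptor, had 24.5, 13.4, 24.8 and 5958.9. For Rgs6 the 2 probes gave scores of 5.67 and 8.75. It was the only one of 13 members with more than 1 probe in which probe scores lay 2-fold or more apart. Probe signals in M+CMs could differ more than that in other members, as for Adcy5 (2433.2 to 13236.6). Adcy5, the adenylyl cyclase typical of heart, was lowest in sfPCBs (141.5, 11.4, 91.0 and 6515.9). Inpp5j (NM_172439), an inositol polyphosphate phosphatase, was equal in sfPCBs and PCBs (7.9, 32.3, 32.0 and 9219.1) and had a score of 8.16 ± 0.27.

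Syk, a tyrosine kinase best known from blood cells, had 84.0, 339.2, 364.8 and 13145.7. Of the blood and macrophage genes listed, 14 were detected in PCBs or M+CMs, 2 were 2-fold or more above PCBs in M+CMs and 6 below, and their summed signal was 1341, 4640, 4094 and 1035. The protein phosphatase gene Ppm1e had 55.9, 23.7, 136.6 and 4274.9. Avp, vasopressin, had 17.8, 8.6, 17.5 and 787.3, and the cholecystokinin receptor Cckar was above background in M+CMs only (211.4, at least 13.3-fold).

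Metabolic genes were 12 members and held ranks 3 and 4, the highest after leaving out. Nmrk2 (NM_027120), the muscle nicotinamide riboside kinase that makes an NAD precursor, had 31.3 (Flk1+ MPCs), 28.3 (sfPCBs), 26.6 (PCBs) and 12509.3 (M+CMs), a score of 8.64 ± 0.26 or 399.5-fold. The 3 earlier populations were almost equal for this gene and above background on all spots. Mb (NM_013593), myoglobin, the oxygen store of heart and red muscle, had 3.7, 17.9, 17.2 and 5614.8, a score of 8.29 ± 0.34, with sfPCBs the only earlier population above background. Pygm, Pgam2 and Pdk2, genes of glycogen and sugar use, had smaller scores and were above background in every array. Pygm, the muscle glycogen phosphorylase, had 595.0, 460.1, 611.6 and 29677.6. Pgam2, the muscle phosphoglycerate mutase, had 453.3, 1166.4, 4963.1 and 155829.5. It was among 6 members with sfPCBs at least 2-fold over Flk1+ MPCs and PCBs at least 2-fold over sfPCBs. That count was not made over all identifiers. Pdk2, a kinase that holds back pyruvate oxidation, had 311.2, 280.3, 488.0 and 13012.5.

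Ppp1r3a, which brings phosphatase 1 to glycogen, was above background in M+CMs only (431.0, at least 24.2-fold). Chchd10, a mitochondrial intermembrane protein, was bright in every array (5964.6, 5284.4, 13991.8 and 339651.6) with a score of 4.60 ± 0.20. Cidea, a lipid droplet protein of brown fat, had 77.8, 33.3, 38.7 and 6985.1. Beside it, 10 adipocyte genes were detected in PCBs or M+CMs, 2 at least 2-fold higher in M+CMs and 6 lower, with summed signals of 941, 13913, 30838 and 1768. The transporters Abcg1 (30.3, 69.4, 407.2 and 14187.6) and Abcd2 (208.4 in M+CMs, at least 13.1-fold) and the kinase Fn3k (30.5, 25.7, 31.6 and 1507.0) completed the group with Ddc. Ddc, the decarboxylase that makes dopamine and serotonin, was highest early in sfPCBs (21.7, 171.4, 77.4 and 5107.7). The oxidative metabolism list also held genes of glycogen, glycolysis and other muscle functions, and its 7 members were Mb, Fsd2, Pgam2, Art3, Pygm, Pdk2 and Ppp1r3a. Of its other 40 detected genes, 34 were 2-fold or more above PCBs in M+CMs and 2, Art5 and Ampd1, lower (median 2.14). These 40 include Cox8b and Cox6a2, which the same ranking picked and which were left out by name only. Their rise thus follows from the choice, and the list was written with earlier results of these data known. Of 34 fatty acid genes, none a member, 24 were higher and 4 lower (median 1.71).

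Transcription regulators were 4 members. Hr (NM_021877), the hairless corepressor of nuclear receptors, was above background throughout (91.9, 134.5, 96.1 and 14933.0), a score of 6.79 ± 0.21. Grhl1, a grainyhead-like factor, had 16.5, 110.8, 244.4 and 23368.3. Hlf, a PAR bZIP factor, had 29.9, 91.9, 45.8 and 2584.0, and Thrb, thyroid hormone receptor β, 5.1, 3.7, 8.5 and 213.2. None of the 34 cardiac transcription factors listed was a member. Of these 34, 15 were 2-fold or more above PCBs in M+CMs and 5 lower, with a median log2 difference of 0.64.

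A set of 6 members belonged to genes of vesicle release, neurons or sensory cells. Syt1, the calcium sensor of synaptic vesicles, was level at 134.0, 155.4 and 126.7 and reached 7570.8 in M+CMs, a score of 5.61 ± 0.21. Elavl3, a neuronal RNA-binding protein, had 51.5, 39.9, 57.3 and 2263.0. Doc2b, a calcium-dependent exocytosis protein, had 13.6 in Flk1+ MPCs, 8.3 in PCBs and 2995.4 in M+CMs, with no spot above background in any earlier array and a fold of at least 187.9. For Syn2 (synapsin II) the values were 14.6, 34.3, 21.8 and 1383.7. Ush1c, the harmonin scaffold of hair cells, had 12.9, 11.9, 21.3 and 854.7 for one identifier and 3.3, 34.2, 23.7 and 1293.8 for the other.

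Other neuron genes did not follow as a block. Of 12 detected, Syt1 and Elavl3 were members, and of the other 10, 4 were 2-fold or more above PCBs in M+CMs, among them Nefl (log2 difference 4.76) and Snap25 (1.74). Stmn2 (-3.14) and Gap43 (-2.50) were lower, and the median of the 10 was 0.01. Dcx, a defining marker of young neurons, was at 10.2 in M+CMs with some spots above background. The summed signal of the list, members included, was 15855, 19102, 13919 and 50890, and Snap25 was at 36998.9 in M+CMs. Their part in the result was not tested.

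The remaining 26 members had scores from 4.55 to 7.19. Eef1a2, the translation elongation factor form of muscle and neurons, had 12.6, 6.3, 33.8 and 4938.2. Pcp4l1 was above background throughout (209.6, 195.5, 731.3 and 80172.9), as were Rnf207, a cardiac ring finger protein (133.2, 462.1, 744.0 and 58496.1), and Ndrg4 (807.5, 3189.4, 1835.3 and 103430.9). Txlnb, a muscle taxilin, had 3.9, 21.1, 158.1 and 14438.7. These genes differed in their early order, Ndrg4 being highest in sfPCBs and the others named in PCBs.

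Fsd2, a protein of the junctional reticulum of striated muscle, and Smim5 were detected before day 10.5 in PCBs only, at 55.6 and 53.3, with M+CM signals of 1569.1 and 1467.0. Art3, Mlip, Strip2, Lsmem1, Lrrc14b, Mfsd6, Rflna, Klhl38, Trnp1, Qpct and NM_177652 were detected in at least 1 day 5.5 population at up to 412.0 in PCBs (Mfsd6), and reached 1060.1 (NM_177652) to 18072.4 (Mfsd6). Prr15 was above background only in Flk1+ MPCs (47.1) and M+CMs (1389.7). Rd3l, Fam81a, Cabcoco1 and Mug2 had no spot above background early (Mug2 has a close copy, Mug1, so its probe is uncertain), and their M+CM signals lay between 196.0 (Mug2) and 798.4 (Fam81a). Lmntd1, Lonrf3 and Map7 had only some spots above background in 1 or more earlier arrays and reached 690.6, 770.4 and 455.5.

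The order of the 3 earlier populations was not set by the rule, which used only the highest of them, although the values are from the same arrays. PCBs were the highest earlier population for 53 members, sfPCBs for 22 and Flk1+ MPCs for 20, whereas over the 16708 identifiers scored the shares were 25.5%, 24.3% and 50.3%. These counts include the 15 members with no spot above background in any earlier array, whose early order is not firm. Of 78 members detected in PCBs or sfPCBs, 35 (44.9%) were at least 2-fold higher in PCBs and 5 (6.4%) at least 2-fold lower, with a median log2 difference of 0.71. Over all identifiers detected in either array, 6.10% were at least 2-fold higher in PCBs and 8.65% lower, with a median of 0.01. In bulk samples, fewer cells of a type and less RNA per cell cannot be told apart. When signals under the detection floor were raised to it, 26 of 78 members (33.3%) were higher in PCBs and 4 lower, against 5.17% and 7.69% of all identifiers. The count also depended on the treatment of dim signals, with 15 members higher in PCBs after an offset of 50 and 13 after normexp and quantile normalization, against 3.14% and 3.12% of all identifiers.

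Pln, Tecrl, Fsd2 and Smim5 were not above background in sfPCBs, so only a bound can be given. PCBs were at least 9.85-fold higher for Pln, at least 4.51-fold for Tecrl, at least 3.67-fold for Fsd2 and at least 3.52-fold for Smim5. Csrp3 (log2 difference 3.74 ± 0.21) was measured on both sides, as were Actn2 (3.50 ± 0.21), Mybphl (3.48 ± 0.28), Tesc (2.57 ± 0.21) and Abcg1 (2.55 ± 0.22). Of the 9 calcium and reticulum members, 7 were at least 2-fold higher in PCBs and 1 lower, and with the floor 4 were higher. For the contractile group it was 5 of 9 with and without the floor. In the vesicle and neuronal group 0 of 5 detected members differed by 2-fold. Over all identifiers 6.10% were at least 2-fold higher in PCBs and 8.65% lower, and with the floor 5.17% were higher. The groups were formed after the values were seen, with Fsd2 kept outside the reticulum group. These counts describe the members only and set no group apart. In the opposite direction, Slc24a4 was 2.28-fold higher in sfPCBs than in PCBs, Ddc 2.21-fold, Tnnt1 2.14-fold, Lonrf3 2.07-fold and Hlf 2.01-fold. Lonrf3 had only some spots above background in both arrays.

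Against Flk1+ MPCs, 41 of 78 members (52.6%) were at least 2-fold higher in PCBs and 5 lower, with a median log2 difference of 1.19, where 14.2% of all identifiers were higher and 12.8% lower. Csrp3, Txlnb, Pln, Cav3 and Tecrl were not above background in Flk1+ MPCs. PCBs were at least 62.5-fold higher for Csrp3, set against its own undetected signal of 23.1, which was above the floor. The bounds were at least 9.92-fold for Txlnb, at least 9.35-fold for Pln, at least 5.68-fold for Cav3 and at least 4.28-fold for Tecrl. Bounds set no order among these genes. Abcg1 (log2 difference 3.75 ± 0.29) and Tesc (3.64 ± 0.21) were measured on both sides. sfPCBs were at least 2-fold higher than Flk1+ MPCs for 25 of 63 members (39.7%) and lower for 11 (17.5%), with a median of 0.34, against 14.9% and 12.3% of all identifiers. The 3 comparisons share arrays, so their counts are not independent. With the floor, 35 of 78 (44.9%) were higher in PCBs and 22 of 63 (34.9%) in sfPCBs than in Flk1+ MPCs, against 13.2% and 13.9% of all identifiers. With an offset of 50 the same counts were 21 and 11, against 10.1% and 10.7%, and after normexp and quantile normalization 20 and 9, against 9.50% and 1722 of 17208 identifiers. For 29 members the 3 earlier signals lay within 2-fold of each other, and 17 of these had all spots above background in all 3, among them Nmrk2, Hr, Pygm, Cacna1h, Syt1 and Elavl3. The same count was not made over all identifiers, so it sets no trait of the members apart.

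**Figure D3:**
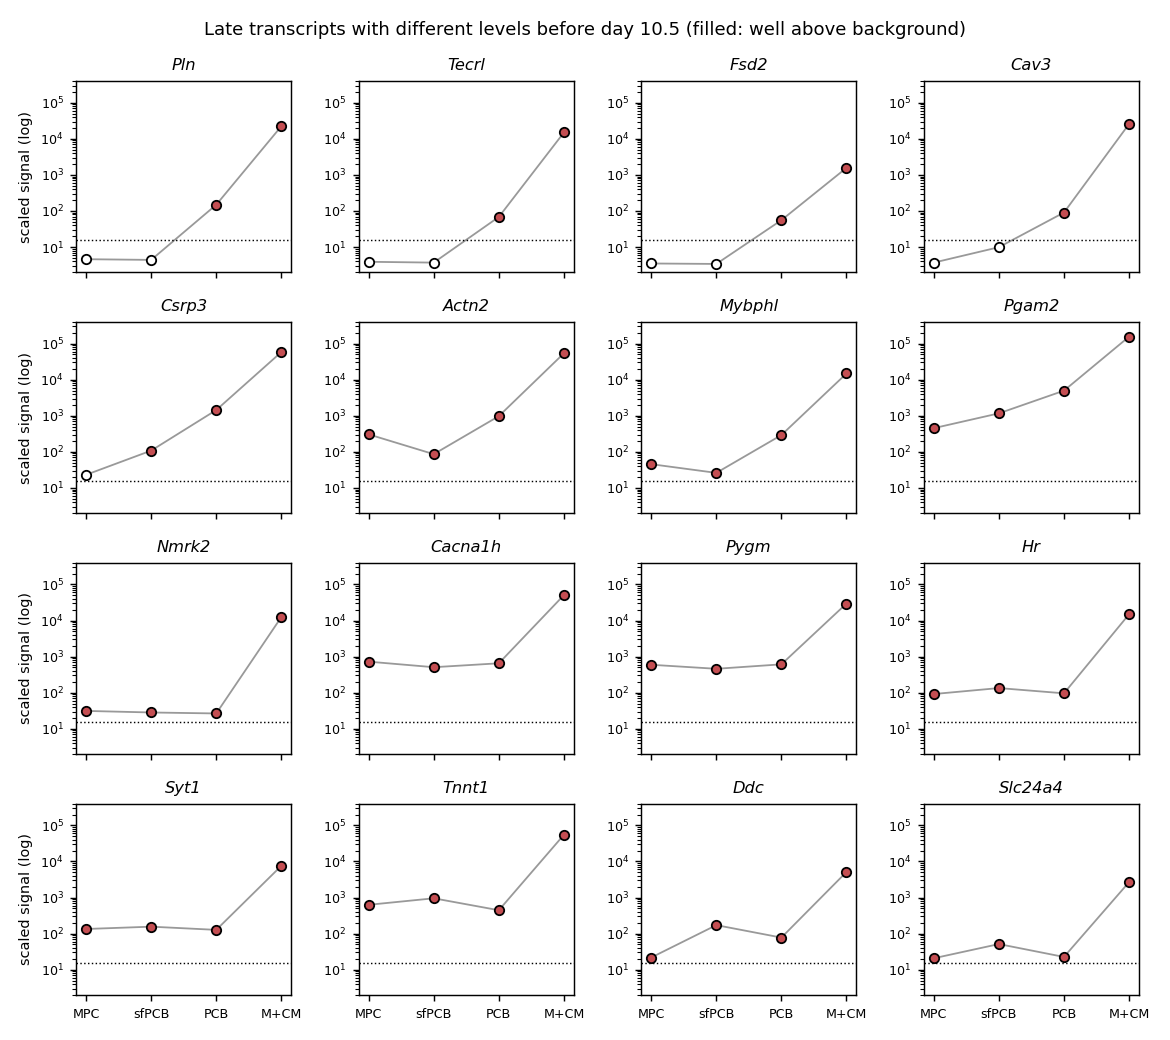
Scaled signals (log axis) of 16 members in the 4 arrays, 1 panel per gene; red points had all spots well above background, white none, and the dotted line is the mean detection floor. Pln, Tecrl and Fsd2 were undetected in Flk1+ MPCs and sfPCBs and detected in PCBs, Nmrk2, Cacna1h, Pygm and Syt1 were level before M+CMs, and Tnnt1, Ddc and Slc24a4 were highest early in sfPCBs.

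The late signal could be compared with that of close relatives in the same gene family. Here members and relatives are both given as the mean over all identifiers of a gene. For 50 pairs of a member and a relative, chosen after the members were known, 46 relatives outside the members were detected in M+CMs or PCBs. Of these, 21 were 2-fold or more above PCBs in M+CMs, 8 lower and 17 within 2-fold, with a median log2 difference of 0.94. Over all genes 19.8% were higher and 17.2% lower, with a median of 0.1, so the relatives chosen were higher more often than genes at large. The pairs did not cover whole families. Actn3, Myl2 and Myl7, for example, were measured but not paired, so the counts hold for the chosen pairs only. In several families the relative common to other tissues was level or lower. Cav1 differed by -0.05 and Cav2 by -1.67 where Cav3 differed by 8.15, Actn1 by -1.18 and Actn4 by -0.48 where Actn2 differed by 5.79, and Csrp1 by -1.13 and Csrp2 by -1.41 where Csrp3 differed by 5.34. Nmrk1 (-0.34) and Eef1a1 (-0.20) were level beside Nmrk2 (8.88) and Eef1a2 (7.19), and Lama1 (-4.71) was far on the other side of Lama2 (7.02).

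Elsewhere the relatives were higher as well. Pdk4 was 4.43 log2 units higher in M+CMs than in PCBs and Pdk1 3.09, beside Pdk2 at 4.74. Pygb (3.16) and Pygl (2.55) accompanied Pygm (5.60), and Cacna1g (4.01) accompanied Cacna1h (3.91, a mean of 2 identifiers). The pair of sulfonylurea receptors, Abcc8 (4.40) and Abcc9 (4.96), was alike. Ndrg2 (5.35) stood beside Ndrg4 (5.82), and the PAR bZIP genes Dbp (3.74) and Tef (1.85) beside Hlf (5.82). In troponin T, the cardiac Tnnt2 was already at 145594.9 in PCBs and differed by 1.47, the fast skeletal Tnnt3 differed by -2.28 and the member Tnnt1 by 6.95.

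**Figure D4:**
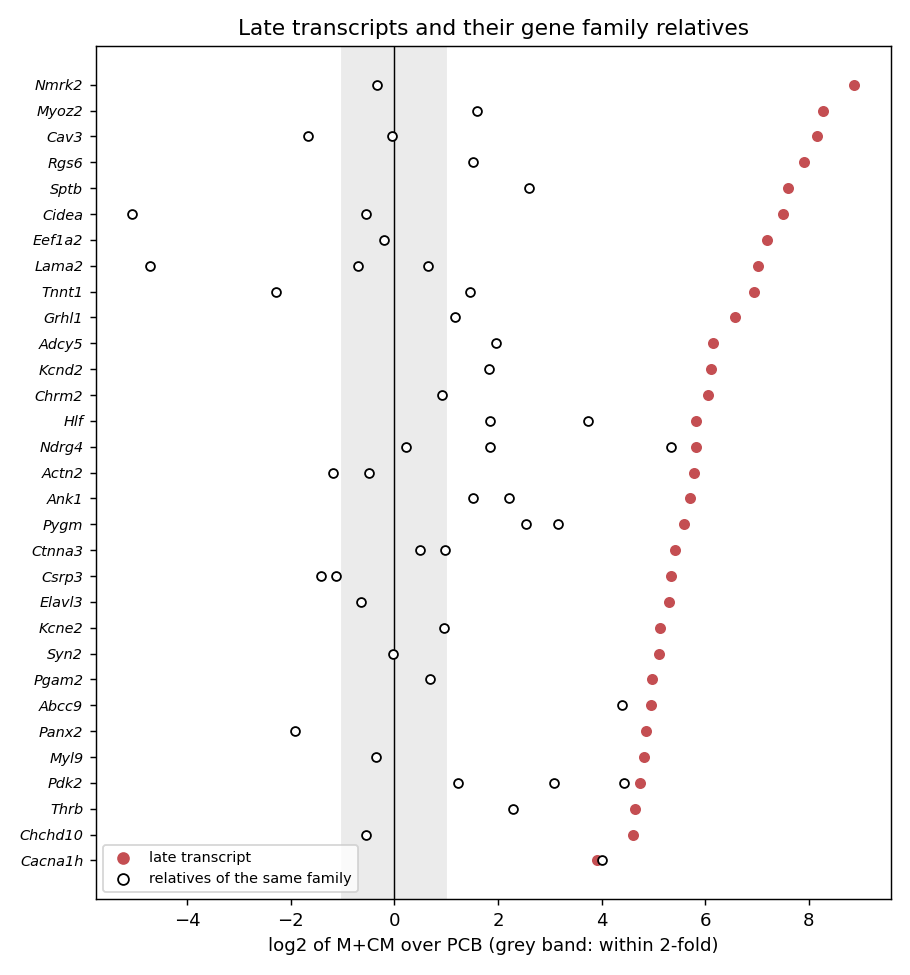
Log2 of M+CM over PCB, a mean over all identifiers of a gene, for late transcripts (red) and for their gene family relatives outside the members (white), 1 row per member; the grey band spans 2-fold either way. Of 46 relatives detected, 17 lie in the band, 21 to its right and 8 to its left.

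Other identifiers of the member genes gave a further view, since they rest on separate probes. For 10 genes there were 9 identifiers outside the members, and M+CMs were the highest of the 4 arrays in 8 and at least 2-fold above the highest earlier array in 6, with a median score of 2.11. Mfsd6 (3.26), Ddc (2.85) and Cacna1h (1.11) were among these 6. The other identifiers of Fn3k and Syn2 had no spot above background in any earlier array and M+CMs exceeded them by at least 18.2-fold and at least 5.29-fold. With these 2 at their bounds the median was again 2.11. The Ddc identifier that is no member was above background in all arrays (513.2, 5278.9, 3296.3 and 38150.6) and was also highest early in sfPCBs. Strip2 (0.42) and Capzb (0.32) had small scores, and for Pde4dip the other identifier was lower in M+CMs than in the highest earlier array (-0.90). Which transcripts the separate probes read was not determined.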

How the data were processed

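The authors deposited 1-colour spot intensities written by Feature Extraction 11.5.1.1, per the file headers, with background-subtracted processed signals, their errors and quality flags, not normalized between arrays. They also deposited a table of log2 values, which equalled log2 of the mean processed signal per probe, unscaled, within 0.001 for 99.7% to 99.8% of probes. The design is annotated on mouse build mm9 in the headers. Here, control and outlier-flagged spots (87 to 144 per array) were left out, processed signals were multiplied to bring the 75th percentile of every array to 2198.4, the mean of the 4, and log2 values were averaged per RefSeq identifier. List genes, and family relatives with the members beside them, were averaged per gene. An identifier was detected where at least 0.5 of its spots were well above background. The detection floor was the lowest signal well above background on an array, scaled. A bound used the floor or the undetected signal itself, whichever was higher. A comparison covered identifiers detected in either array.

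Symbols came from RefSeq (98.4% of identifiers matched) and promoters from RefSeq on GRCm38.p6. The members and gene lists were chosen with earlier results of these data known. Genes were named by a rule: the 15 highest scores, the 5 highest M+CM signals, the 5 highest scores detected in all arrays, the 5 largest and 5 smallest PCB minus sfPCB differences, the 5 largest PCB minus Flk1+ MPC differences, up to 6 members per list, and those at the threshold. Genes named beyond it were chosen after their values were seen. With 1 array per population no test was run, and depth does not apply to arrays. Tools were Python 3.11.15, numpy 2.4.6, pandas 2.3.3, matplotlib 3.10.9, R 4.3.3 and limma 3.58.1. Normexp used median spot intensities. Protein lengths were not analysed here. Certain members are counted in the totals but not reported here by name.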

Additional observations from a re-analysis of the deposited data

How the results depend on the processing

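The 95 members, their median score, the number not detected earlier and the early counts were recomputed under 10 other settings, and the members also with the named identifiers left out before ranking. Raising dim signals left the largest effect. With an offset of 50 added before log2, 69 of the 95 members were among those chosen, the median score was 4.60, and 15 members were 2-fold or more above sfPCBs in PCBs, 21 above Flk1+ MPCs in PCBs and 11 above Flk1+ MPCs in sfPCBs. With normexp (offset of 50) followed by quantile normalization, 64 were among those chosen, the median score was 4.47 and the same counts were 13, 20 and 9. Under both, the share of all identifiers higher in PCBs than in sfPCBs was 3.1%. Quantile normalization shared 91 members, no scaling 92 and the median of spots 94, and the others tried shared all 95. A detection floor for dim signals, an alternative chosen after seeing the data, shared 90. Of the scores of 48 named members, 35 moved by more than 1.96 times their error with normexp, 31 with the offset and 1 without scaling, and 0 reversed under any setting. None of the 48 moved under the others, several of which could change little, since no spot was saturated. Without scaling, the median log2 difference of M+CMs over PCBs across all identifiers was -0.10 in place of 0.11. No replicates exist, so leaving out a sample could not be tried. No paired analysis was possible because each population had 1 array. Differences against signals under the floor have no firm size.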
